A study of Mus musculus with 4 samples.

Results

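Lymphatic endothelial cells line the vessels that drain fluid and immune cells from the heart wall. They were picked out of 4 single-cell RNA libraries of whole mouse heart by the counts of 5 marker genes, and 247 barcodes (each barcode stands for a droplet, taken as a cell) out of 41542 met the rule. A member had at least 500 unique molecular identifiers (UMIs, counted RNA molecules), at least 200 genes and at most 20% mitochondrial UMIs. It had at least 1 UMI of at least 2 of Prox1, Lyve1, Mmrn1, Flt4 and Reln, and Prox1 or Mmrn1 had to be among them. It had fewer than 20 UMIs per 10000 of C1qa, C1qb and C1qc (macrophage genes) and of Col1a2, Dcn and Col3a1 (fibroblast genes), and no UMI of Npr3 (an endocardial gene). The members were thus chosen by the measured counts of these genes, so their levels are a description and carry no test.

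The libraries were a control heart sample, a sham sample, a sample after cecal ligation and puncture (CLP, a surgical model of polymicrobial sepsis), and a sample with sepsis and low level stimulation of the tragus (written "tagus" in its label), a part of the outer ear supplied by a branch of the vagus nerve. Each group was 1 library of all heart cells made with the Chromium 3′ kit. The labels used here do not give the strain or age of the mice, how many were used per library, or when the hearts were taken. The members numbered 118 of 15598 barcodes in control, 55 of 8968 in sham, 62 of 8331 in CLP and 12 of 8645 in CLP plus stimulation. With 1 library per group no difference between treatments has a replicate check, so these comparisons carry no p-value, and every interval given for them covers counting error only.

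As background, lymphatic endothelium is specified by the transcription factor PROX1 and grows in response to VEGFC through the receptor FLT4 (VEGFR3). Initial lymphatic capillaries express LYVE1, podoplanin and the chemokine CCL21, which draws dendritic cells and T cells into the vessel. Collecting lymphatics have less LYVE1, are covered by muscle cells and hold valves whose cells express PROX1 and FOXC2 at high levels.

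Sequencing depth was similar across libraries, at 54611436 to 59465046 UMIs, whereas the kept barcodes were shallower in control (median 3063 UMIs) than in the other libraries (4809 to 5520). The members held 575791 UMIs in control, 528690 in sham, 435957 in CLP and 216428 for CLP plus stimulation. A few deep barcodes carried much of these sums. The deepest member held 4.90% of the member UMIs in control, 18.0% in sham, 16.3% in CLP and 32.8% for CLP plus stimulation, and the deepest 3 together held 85.8% in the last. Between 19 and 60 barcode sequences occurred in both libraries of a pair, and no member was among them. Levels are given as counts per 1000000 UMIs (CPM), from the summed UMIs of the members of a library.

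**Figure D1:**
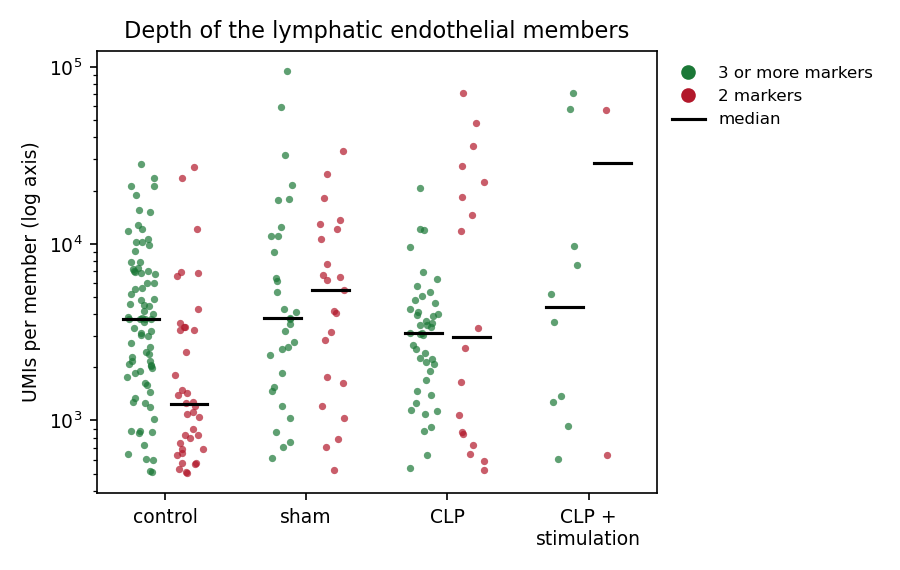
UMIs per member (log axis) in the 4 libraries, each point a barcode, with members carrying 3 or more of the markers in green and those with 2 in red, and lines at the medians. In CLP the deepest points are members with 2 markers, and in CLP plus stimulation 3 of the 12 members lie far above the rest.

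The label was checked against lymphatic genes outside the rule, and it held for the 166 members with at least 3 markers (80 in control, 32 in sham, 44 in CLP, 10 in CLP plus stimulation) better than for the 81 with 2. Ccl21a was detected in 72.9% of the former and 21.0% of the latter. Pdpn, encoding podoplanin, was detected in 46.4% and 4.94%, and Fgl2, a fibrinogen-like protein, in 86.7% and 32.1%. The blood endothelial receptor gene Flt1 went the other way, with UMIs in 10.2% of the members with at least 3 markers and 48.1% of those with 2. The median depths were 3579 and 1797 UMIs, and the part of depth in these detection rates was not tested. The 2-marker members were mixed. Of the 13 positive for Lyve1 and Mmrn1 alone (median 1204 UMIs), 76.9% held Ccl21a, against 0 to 23.1% for other pairs of markers. The clearest exception to the label was a group of 31 members positive for Prox1 and Flt4 alone (9 in control, 15 in sham, 7 in CLP). Of these 87.1% held Flt1, 96.8% Kdr and 87.1% the capillary fatty acid binding gene Fabp4, whereas 6.45% held Ccl21a and 0% Pdpn. Their median depth was 6834 UMIs, against 3579 in the members with at least 3 markers.

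**Figure D2:**
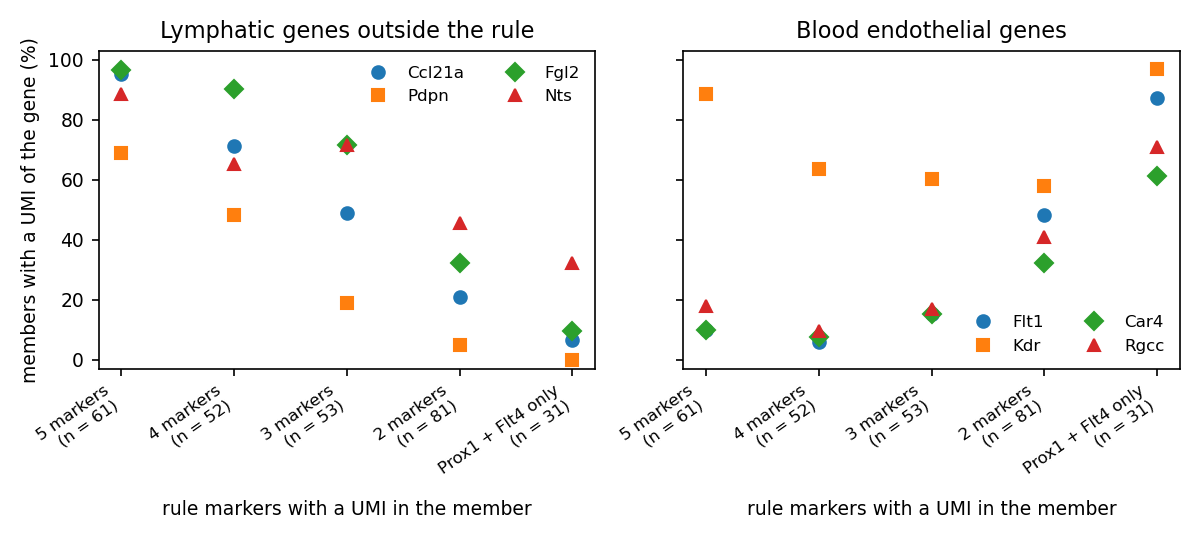
Percent of members with a UMI of each gene, by the number of rule markers detected and, in the last column, for members positive for Prox1 and Flt4 alone. Ccl21a was in 95.1% of members with 5 markers, 49.1% of those with 3 and 6.45% of the last column, while Flt1 was at 9.84% and 87.1% at the ends.

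In the order control, sham, CLP and CLP plus stimulation, the genes of the rule were at the following levels in the members with at least 3 markers. Prox1 was at 588, 1046, 593 and 485 CPM and was highest in sham. Lyve1, the hyaluronan receptor of capillaries, was at 830, 276, 2201 and 976 CPM and Reln, a secreted matrix protein, at 455, 213, 1123 and 623 CPM, both lowest in sham and highest in CLP. Mmrn1, a matrix protein gene, was at 2102, 1341, 2108 and 1309.9 CPM and Flt4 at 783, 546, 997 and 479 CPM. In sham 2 deep members held 44.4% of the UMIs behind these levels. They held 117 and 78 UMIs of Prox1, 1 and 0 of Lyve1 and 4 and 2 of Reln.

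Members with 2 markers held 22.6% of the member UMIs in control, 34.2% in sham, 60.2% in CLP and 26.6% for CLP plus stimulation, and the 5 deepest members of CLP were all of this kind. The results below are therefore given both for all members by the rule and for the 166 members with at least 3 markers, called the 3-marker members. The summed level of 8 blood endothelial markers in all members was 2280 CPM in control, 2879 in sham, 6189 in CLP and 481 for CLP plus stimulation. In the 3-marker members it was 1389, 1241, 1665 and 623 CPM, against 6936 to 10673 CPM in blood endothelial barcodes. Blood endothelial barcodes were those with at least 3 of Cdh5, Pecam1, Egfl7, Esam, Tie1 and Ramp2, no Prox1, Mmrn1, Lyve1, Reln or Npr3, and the same limits otherwise (7667 barcodes).

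Other cell types left smaller traces. The 5 neutrophil markers summed to 565 CPM in control, 34.5 in sham, 357 in CLP and 170 for CLP plus stimulation in the 3-marker members. The 6 pericyte and smooth muscle markers summed to 177, 54.6, 444 and 50.4 CPM, the 6 cardiomyocyte markers to 251, 91.9, 392 and 18.9 CPM, and the 4 red cell genes to 119, 5.75, 40.3 and 0 CPM. In all members by the rule the red cell genes reached 1739 CPM in CLP. Macrophage and fibroblast markers, part of which the rule limits, summed to at most 296 and 305 CPM in any library. Their part in the differences between libraries was not tested. Doublet calls played no part in the rule: by Scrublet scores 13 members of control, 1 of sham, 1 of CLP and 0 of CLP plus stimulation would be left out, and a repeat without them is among the alternatives in the closing part.

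The members made up 0.757% of kept barcodes in control (exact 95% interval 0.627 to 0.905%), 0.613% in sham (0.462 to 0.798%), 0.744% in CLP (0.571 to 0.953%) and 0.139% in CLP plus stimulation (0.0717 to 0.242%). The first 3 intervals overlapped, and that of CLP plus stimulation lay below them. Endothelial barcodes as a whole were also fewer in that library, at 540, against 1740 to 3522 in the others. As a share of endothelial barcodes the members were 3.35% (2.78 to 4.00%), 3.16% (2.39 to 4.09%), 2.72% (2.09 to 3.47%) and 2.22% (1.15 to 3.85%), and all 4 intervals overlapped. At the edges of the rule, 115, 46, 62 and 14 barcodes in the same order of libraries had only 1 of the markers, and 54, 71, 37 and 15 failed the macrophage or fibroblast limits. The highest macrophage level inside the limit was 19.8 per 10000 UMIs and the lowest outside was 20, both in control.

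Set against blood endothelial cells of the same 4 libraries, the members carried a lymphatic programme well beyond the genes that chose them. Ccl21a, the chemokine of lymphatic capillaries, stood at 11739 CPM in control, 2756 in sham, 3844 in CLP and 2865 for CLP plus stimulation in the members, and at 6.84, 1.07, 2.42 and 0.649 CPM in blood endothelial barcodes. The groups were far apart in every library. The edgeR quasi-likelihood test, with the library as a block, gave a log2 fold change of 10.80 ± 0.28 (SE, adjusted p = 1.03e-07). Ccl21a (ENSMUSG00000094686) lies on chromosome 4, 42772860 to 42773993, minus strand, and has near-identical gene copies, so its reads may be split among them.

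Fgl2 was at 1532, 1212, 1030 and 2088 CPM in the members of the 4 libraries, against 6.20 to 14.6 CPM in blood endothelium (log2 7.03 ± 0.24, adjusted p = 5.12e-07 by edgeR). Lbp, encoding the secreted protein that carries bacterial lipopolysaccharide to its receptor, was at 337, 414, 993 and 1968 CPM against 2.75 to 31.9 CPM (log2 6.20 ± 0.40, adjusted p = 1.88e-05 by edgeR). Nts, encoding neurotensin, was at 1864, 1818, 791 and 3313 CPM against 40.1 to 158 CPM (log2 4.58 ± 0.30, adjusted p = 1.88e-05 by edgeR). For all 3 genes the lowest member library lay above the highest blood endothelial library.

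Among the transcription factors, Tbx1, needed for lymphatic growth, averaged 88.7 CPM over the 4 libraries against 0.0678 CPM (log2 9.45 ± 0.37, adjusted p = 7.48e-07), and Maf 428 against 14.2 CPM (log2 4.73 ± 0.22, adjusted p = 2.62e-06). The lymphatic valve factor Foxc2 was higher by 3.26 ± 0.35 and the venous and lymphatic factor Nr2f2 by 2.19 ± 0.19 on the log2 scale, both called. Sox18, which acts upstream of Prox1 in the embryo, was lower in the members, at 117 against 232 CPM (log2 -1.15 ± 0.18, adjusted p = 0.00321 by edgeR). Of the guidance genes, Sema3d averaged 259 against 1.91 CPM (log2 6.83 ± 0.24) and Sema3a, a repellent cue that takes part in lymphatic valve formation, 181 against 4.70 CPM (log2 5.26 ± 0.35). Other genes among the 10 with the highest fold changes were Dtx1, a regulator of Notch signalling (log2 8.38 ± 0.31), the hydrogen peroxide producing oxidase Duox2 (log2 8.20 ± 0.39), the amino acid transporter Slc38a4 (log2 8.01 ± 0.43), the planar polarity gene Celsr1 (log2 7.84 ± 0.57) and the membrane glycoprotein gene Gpm6a (log2 7.72 ± 0.28). Il7, the T cell survival cytokine that lymphatic vessels secrete, averaged 55.9 against 0.483 CPM (log2 6.56 ± 0.47, adjusted p = 3.18e-05 by edgeR).

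Over all 9687 genes tested, 549 were higher in the members (5.67%) and 785 lower (8.1%) at an adjusted p under 0.05. Of the list of 30 lymphatic identity genes, 29 were tested, 20 were higher and 1, Sox18, was lower, with a median log2 fold change of 3.15 against -0.14 for all genes. With the 3-marker members alone, 932 genes were higher (9.55%) and 1400 lower (14.3%), and 21 identity genes were higher and 1 lower. The counts depended on which libraries entered. Without control 273 genes were higher and 169 lower, without sham 302 and 401, and without CLP plus stimulation 877 were higher. The p-values rest on how much the difference between the cell sets varied among 4 libraries that differ in treatment.

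**Figure D3:**
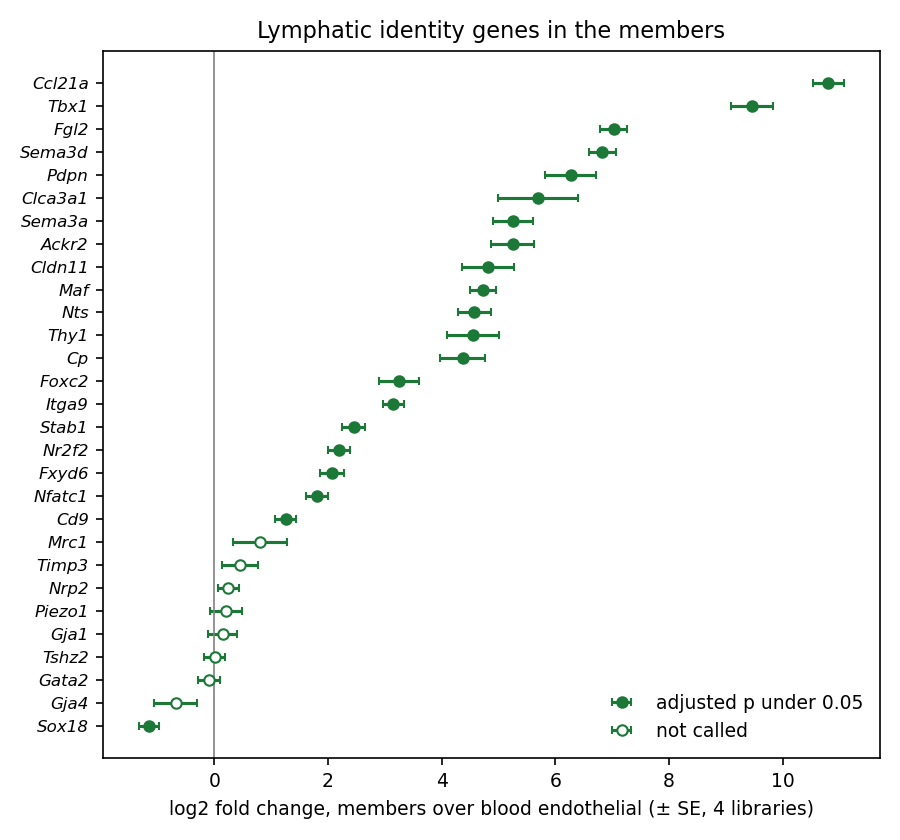
Log2 fold change (± SE, 4 libraries) of the lymphatic identity genes that were tested, members over blood endothelial barcodes, with filled points for an adjusted p under 0.05 in edgeR. Ccl21a stands highest at 10.80, and Sox18 is the filled point below 0.

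Among the 10 called genes with the lowest fold changes in the members were Nebl, Gja5, Alpl and Ngp, a gene of neutrophil granules, and class I genes were lower as a list. From control to CLP plus stimulation, the 5 neutrophil markers summed to 93.1, 437, 3053 and 5857 CPM in blood endothelial barcodes. In all members they summed to 439, 28.4, 284 and 171 CPM. The part of neutrophil RNA in the Ngp difference was not tested. Nebl, encoding a nebulin-like protein, and Gja5, encoding an arterial connexin, had no UMI in the members of any library, which allows up to 1.71 CPM over the libraries, and averaged 17.1 and 10.2 CPM in blood endothelium. The call for Gja5 was lost without the control library. Alpl, an alkaline phosphatase of blood endothelium, averaged 4.28 against 48.8 CPM (log2 -3.65 ± 0.38, adjusted p = 0.000291 by edgeR). Fabp4 was lower by 1.93 ± 0.37 on the log2 scale in all members and by 3.30 in the 3-marker members. Of 28 MHC class I and interferon gamma target genes tested, 0 were higher and 20 lower (23 in the 3-marker members). B2m, the light chain of class I molecules, averaged 1007 against 1713 CPM (log2 -1.05 ± 0.18, adjusted p = 0.00518 by edgeR), and H2-K1 averaged 732 against 1103 CPM (log2 -0.83 ± 0.19, adjusted p = 0.0173 by edgeR). Of 30 type I interferon response genes 0 were higher and 13 lower (23 in the 3-marker members), and of 21 lipid uptake genes 1 was higher and 9 lower.

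Acute phase and interleukin 6 response genes leaned to the members, with 9 of 26 higher and 2 lower, and 12 and 2 in the 3-marker members. They included Lbp, Lrg1 (742 against 89.4 CPM, log2 3.89 ± 0.60, adjusted p = 0.00321 by edgeR), Lcn2 (7011 against 1779 CPM, log2 4.05 ± 0.89, adjusted p = 0.0157), Serpina3n (197 against 19.9 CPM, log2 3.14 ± 0.28) and C3 (111 against 12.6 CPM, log2 2.57 ± 0.30). Leukocyte guidance genes went both ways, with 7 of 29 higher and 10 lower. Of 14 endothelial junction genes 0 were higher and 5 lower, and of 22 basement membrane genes 3 were higher and 8 lower.

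Endocardial cells line the heart chambers and were taken as barcodes with Npr3, at least 2 of the same 6 endothelial genes and no Prox1 or Mmrn1 (170 barcodes). Of 5233 genes tested by edgeR, 216 were higher in the members (4.13%) and 126 lower (2.41%). Ccl21a averaged 1.05 CPM in endocardial barcodes (log2 11.30 ± 0.46, adjusted p = 5.71e-07) and Fgl2 4.76 CPM (log2 7.87 ± 0.44, adjusted p = 4.80e-06 by edgeR). Dtx1, Tbx1, Duox2 and the matrix protein gene Fndc1 had no endocardial UMI, which allows up to 2.78 CPM, and averaged 134, 88.7, 58.5 and 95.2 CPM in the members. The members were lower in the imprinted growth genes Igf2 (40.9 against 763 CPM, log2 -3.92 ± 0.36) and H19 (34.4 against 369 CPM, log2 -3.42 ± 0.26) and in Mgp, an inhibitor of calcification (171 against 1832 CPM, log2 -3.68 ± 0.50). Of 25 identity genes tested 17 were higher and 0 lower, with a median log2 fold change of 1.86 against 0.06 for all genes. With the 3-marker members alone, 397 genes were higher (10.6% of 3728) and 269 lower (7.22%), and 19 identity genes were higher and 0 lower. The counts in all members were 79 higher and 25 lower without control, 88 and 30 without sham, and 123 and 50 without CLP, and 192 genes were lower without CLP plus stimulation.

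In the comparisons of treatments, a gene was called when its level differed by at least 2-fold among genes with at least 20 UMIs over both libraries. "Rose" and "fell" are used of called genes. In counts simulated for all members with counting error only, 3.28% of unchanged genes passed 2-fold in either direction in sham over control. The values were 3.42% in CLP over sham and 5.53% in CLP plus stimulation over CLP. CPM values are those of the 3-marker members, in the order control, sham, CLP, CLP plus stimulation, and log2 ratios are given for all members and then for the 3-marker members, with exact 95% intervals where they carry the result.

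Ccl21a and Pdpn were lower in sham than in control in the summed members, by less than 2-fold when each 3-marker member counted equally. Ccl21a stood at 14876 CPM in control, 4154 in sham, 9511 in CLP and 3905 for CLP plus stimulation. Control was highest, and sham fell below it by 2.09 on the log2 scale in all members (interval -2.17 to -2.01) and by 1.84 in the 3-marker members (-1.92 to -1.76). The 2 deepest sham members, with 95171 and 59556 UMIs, held 1 and 0 UMIs of Ccl21a and 44.4% of the UMIs of the 3-marker members of that library. When each 3-marker member was weighted equally the levels were 15135 CPM in control and 8004 in sham, a difference of less than 2-fold. Per member with at least 1000 UMIs, the median was 13950 CPM in control (15 of 70 members at 0), 2236 in sham (9 of 28 at 0), 3857 in CLP (13 of 40 at 0) and 69.0 in CLP plus stimulation (3 of 8 at 0). After thinning to 1000 UMIs, Ccl21a was found in 75.7% of the 3-marker members of control and 60.7% of those of sham, against 0.595% and 0.312% of blood endothelial barcodes (unthinned 80.0% and 65.6% against 1.35% and 0.543%, with median depths of 3754 and 3780.5 UMIs in the 3-marker members and 2434 and 3765 in blood endothelium). Pdpn was at 251, 97.7, 179 and 56.7 CPM, and it also fell from control to sham (-1.58, -2.18 to -1.04, and -1.35, -1.96 to -0.80), with equal-weight levels of 232 and 137 CPM, under 2-fold.

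Among the genes that rose from control to sham were Ackr4, a scavenger receptor for CCL21 (17.9, 155, 0 and 0 CPM, log2 2.06 and 3.04), and Gdf15, a stress-induced cytokine (500, 1508, 207 and 296 CPM, log2 1.28 and 1.59). Gdf15 did not share this direction in blood endothelium, where it was at 55.5 CPM in control and 34.4 in sham. Ackr4 came from few members: among 3-marker members of sham with at least 2000 UMIs, 2 of 13 with a Lyve1 UMI and 4 of 10 without one held it. The prostaglandin synthase gene Ptgs1 (log2 2.72 and 2.45), the xylosyltransferase gene Gxylt2 (2.06 and 2.27) and the transcription factor gene Gata6 (1.52 and 1.62) rose as well. Vcam1, a leukocyte adhesion molecule, rose by 3.24 on the log2 scale in all members. In the 3-marker members it had no UMI in control and 46.0 CPM in sham, at least 6.83-fold higher. There it was below the 20 UMIs needed for a call and came from few members. Among those of sham with at least 2000 UMIs, 1 of 13 with a Lyve1 UMI held 7 UMIs of Vcam1. In the 10 without Lyve1, 3 members held 9 UMIs. Of genes listed among the largest falls, AA467197 fell by 2.49 and 2.26, and Sned1, a matrix protein gene, by 1.17 and 1.14 on the log2 scale. With equal weights Gata6 was at 66.1 and 79.0 CPM and AA467197 at 127 and 88.8 CPM in the 3-marker members of control and sham, both under 2-fold. In all, 363 genes rose (5.43% of 6686) and 191 fell (2.86%). TMM scaling gave 275 and 244 and DESeq2 size factors 281 and 241. In the 3-marker members 277 rose (5.05% of 5480) and 158 fell (2.88%), of which 145 and 80 were also called in all members. Of the 30 identity genes 2 rose and 3 fell, with a median log2 ratio of -0.03 against 0.07 over all genes. Of 24 class I genes 5 rose and 0 fell (1 and 0 of 19 in the 3-marker members), and of 23 type I interferon genes 4 rose and 0 fell (1 and 0 of 14).

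Acute phase genes were higher in CLP than in sham in the members, among them Lcn2, which encodes lipocalin, a protein that withholds iron from bacteria. Lcn2 (ENSMUSG00000026822, chromosome 2, 32384633 to 32388252, minus strand) stood at 713 CPM in control, 371 in sham, 12668 in CLP and 28718 for CLP plus stimulation. Both septic libraries were above both others, and the log2 ratio of CLP to sham was 4.58 in all members (4.33 to 4.85) and 5.09 in the 3-marker members (4.84 to 5.36). Among 3-marker members with at least 1000 UMIs, the lowest CLP member had 2846 CPM, the median was 9967 and the highest 51027, and 0 of 40 were at 0. In sham the median was 275 CPM, the highest 1592, and 8 of 28 were at 0. Every one of these CLP members was above every sham member, but the other libraries overlapped. The highest control member, at 3081 CPM, was above the lowest CLP member. The lowest of the 8 members in CLP plus stimulation, at 827 CPM, was below the highest sham member. Members of a library are not replicates of its treatment. Thinned to 1000 UMIs, Lcn2 was detected in 100% of the 40 CLP members and in 29.2% of blood endothelial barcodes of CLP (unthinned 97.7% and 60.4%, median depths 3116.5 and 3845 UMIs). Blood endothelium went from 7.69 CPM in sham to 593 in CLP, a larger ratio (log2 6.26) from a lower base.

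Neutrophils store lipocalin, and the 5 neutrophil markers summed to 14100.4 CPM over all other kept barcodes of CLP, neutrophils among them, against 2656 CPM in sham. Lcn2 was at 2521 CPM over those barcodes of CLP. The neutrophil markers summed to 357 CPM in the 3-marker members of CLP and 34.5 CPM in those of sham. In blood endothelial barcodes they summed to 3053 CPM in CLP and 437 CPM in sham. The part of neutrophil RNA in the Lcn2 of either cell set was not tested. Saa3, another acute phase gene, had no UMI in the members of control and sham and reached 1423 CPM in the 3-marker members of CLP, at least 165-fold higher. It was also at 1249 CPM in blood endothelium and 17397 CPM over all other kept barcodes of that library. The part of RNA from other cells in the Saa3 of the members was not tested.

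The other acute phase genes that rose in CLP were the following. Lbp (chromosome 2, 158306493 to 158332852, plus strand) was at 397, 597, 2212 and 2658 CPM, with log2 ratios of CLP to sham of 1.26 and 1.89 (1.64 to 2.14). Thinned to 1000 UMIs, it was detected in 82.5% of the 3-marker members of CLP and 2.74% of blood endothelial barcodes (unthinned 84.1% and 9.31%). Lrg1, a secreted glycoprotein that modifies TGF-beta signalling, was at 437, 227, 1475 and 2028 CPM (2.29 and 2.69, 2.33 to 3.08). Serpina3n, a protease inhibitor, was at 4.49, 20.1, 778 and 529 CPM (4.22 and 5.18, 4.19 to 6.62), and complement C3 at 11.2, 17.2, 363 and 346 CPM (3.29 and 4.29, 3.19 to 5.90). For each of these both septic libraries were above control and sham.

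The metal-binding metallothionein genes rose with them. Mt1 was at 170, 322, 1555 and 7809 CPM (1.92 and 2.27, 1.95 to 2.60) and Mt2 at 13.5, 66.1, 979 and 3143 CPM (3.15 and 3.86, 3.26 to 4.59). Socs3, the feedback inhibitor of interleukin 6 signalling, went the other way: it was at 604, 796, 305 and 718 CPM and fell (-1.11 and -1.37, -1.83 to -0.95), while in blood endothelium it was at 271 CPM in sham and 372 in CLP. Over all other kept barcodes of CLP, Serpina3n was at 1241 CPM, C3 at 634, Mt1 at 4054 and Mt2 at 1702, each above the 3-marker members, and in blood endothelium they were at 40.8, 20.2, 571 and 166 CPM, each below them. The part of free RNA in these 4 genes was not tested. Of 20 acute phase genes measured 12 rose and 2 fell, with a median log2 ratio of 1.45 against -0.10 over all genes (12 and 2 of 18 and a median of 1.84 in the 3-marker members). The genes counted as rising include Saa3, Serpina3n, C3, Mt1 and Mt2, each of them higher over all other kept barcodes of CLP than in the 3-marker members. The background was 375 genes rising (5.97% of 6281) and 596 falling (9.49%). In the 3-marker members 260 rose (6.09% of 4270) and 438 fell (10.3%), of which 123 and 252 were also called in all members. TMM scaling gave 446 rising and 496 falling and DESeq2 size factors 474 and 479, the latter adding 0.13 to every log2 ratio.

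The 250 bases before the annotated starts of Lcn2, Mt1 and Mt2 are shown because these genes rose in both septic libraries and have motifs of factors known to act on them (RefSeq, build GRCm38.p6, each 5′ to 3′ on the gene's own strand). Lcn2 is at chr2:32387740-32387989 on the minus strand, Mt1 at chr8:94178839-94179088 on the plus strand and Mt2 at chr8:94172368-94172617 on the plus strand. The starts are those of RefSeq, and the annotation of the matrix places the starts of the 3 genes elsewhere, for Lcn2 upstream of this window. Capitals mark matches, on either strand, to the C/EBP motif TTGCNNAA or to the core of the metal response element, TGCACNC or TGCGCNC.
Lcn2: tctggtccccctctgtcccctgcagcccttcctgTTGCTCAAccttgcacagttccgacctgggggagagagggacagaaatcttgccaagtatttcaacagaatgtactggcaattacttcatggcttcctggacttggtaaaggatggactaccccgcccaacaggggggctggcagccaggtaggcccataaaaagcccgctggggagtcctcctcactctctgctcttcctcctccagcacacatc
Mt1: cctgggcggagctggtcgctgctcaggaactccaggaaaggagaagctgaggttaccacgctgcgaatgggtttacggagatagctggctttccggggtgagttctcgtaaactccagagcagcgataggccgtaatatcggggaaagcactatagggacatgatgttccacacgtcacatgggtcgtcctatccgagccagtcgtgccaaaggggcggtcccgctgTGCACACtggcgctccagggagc
Mt2: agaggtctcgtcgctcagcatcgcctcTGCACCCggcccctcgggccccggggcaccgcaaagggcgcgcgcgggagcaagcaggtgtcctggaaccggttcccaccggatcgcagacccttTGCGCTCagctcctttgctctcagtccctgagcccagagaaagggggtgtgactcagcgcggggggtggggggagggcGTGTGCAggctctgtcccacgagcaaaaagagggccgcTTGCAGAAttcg
Lcn2 held 1 C/EBP match, Mt1 held 1 metal response core, and Mt2 held 3 of the latter and 1 C/EBP match near its 3′ end. None of the 3 held the STAT3 motif TTCNNNGAA. Of 32851 promoters of the same length, 9.56% held the C/EBP motif, 7.02% the STAT3 motif and 21.4% a metal response core. A match is a description of these letters, not a site or a cause.

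Interferon and class I genes were also higher in CLP, with values that differed between the 2 sets of members. Of 29 type I interferon genes 16 rose and 0 fell, with a median log2 ratio of 1.06, and 8 rose and 0 fell of 15 in the 3-marker members (median 1.00). With members thinned to 1000 UMIs the median of the list was -0.31. Isg15, a ubiquitin-like interferon product, was at 175, 172, 432 and 309 CPM (1.48 and 1.32, 0.82 to 1.84). Irf7 rose by 3.44 in all members and 2.05 in the 3-marker members. Of 26 class I and interferon gamma genes 18 rose and 0 fell (11 and 2 of 20 in the 3-marker members). H2-T23 was at 233, 276, 784 and 428 CPM (1.07 and 1.5, 1.12 to 1.90) and the peptide transporter Tap2 at 35.9, 54.6, 190 and 31.5 CPM (1.51 and 1.78, 0.94 to 2.70). Irgm1 fell in the 3-marker members (-1.35, -2.72 to -0.32) and had a ratio of -0.61 in all members. The blood endothelial markers that moved with these counts in all members, 2879 CPM in sham and 6189 in CLP, were at 1241 and 1665 CPM in the 3-marker members.

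**Figure D4:**
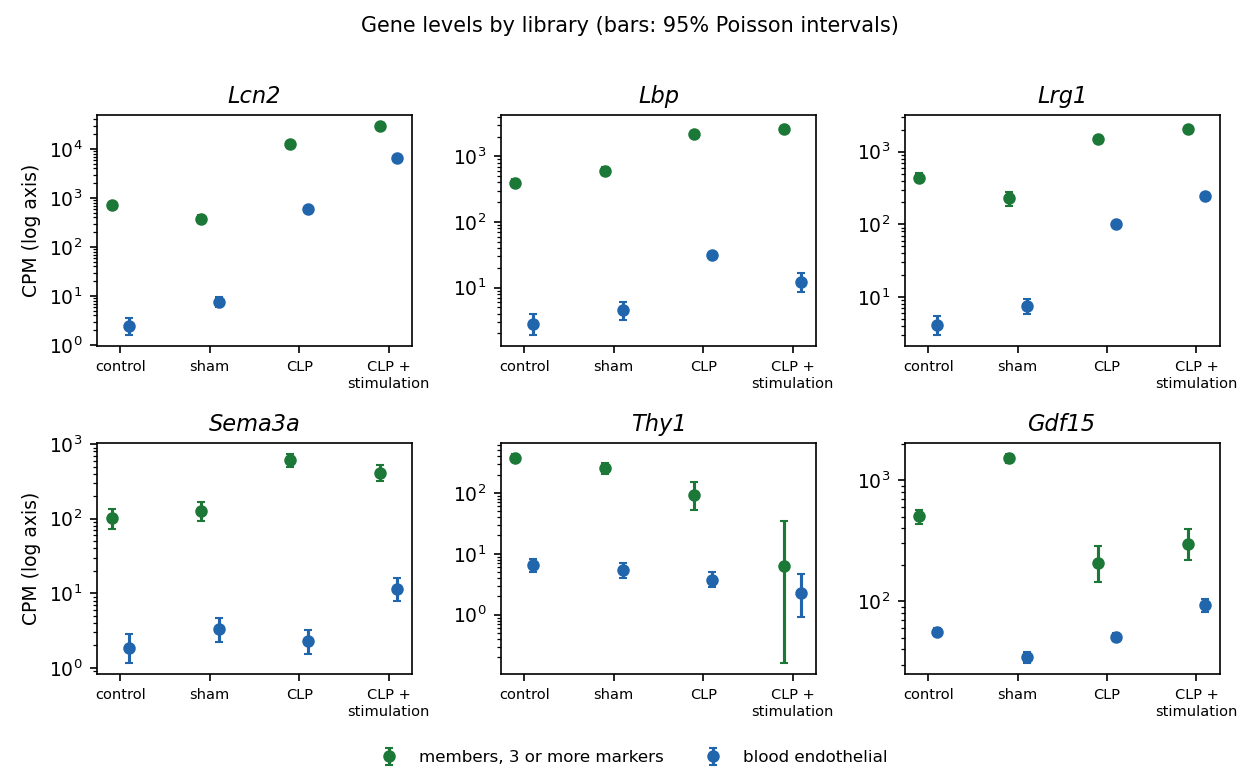
CPM (log axis) of 6 genes in the 3-marker members (green) and in blood endothelial barcodes (blue) of each library, with bars for 95% Poisson intervals. Lcn2, Lbp and Lrg1 are higher in the 2 septic libraries in both cell sets, whereas Sema3a was at 126 and 611 CPM in the members of sham and CLP and at 3.31 and 2.26 CPM in blood endothelium.

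Sema3a, Gdf15 and Fn1 were among the genes that differed between sham and CLP outside the acute phase list. The sham levels lean on the 2 deepest members, which held 44.4% of the UMIs of its 3-marker members. Sema3a (chromosome 5, 13125414 to 13602565, plus strand) was at 101, 126, 611 and 416 CPM, with both septic libraries above the other libraries, and rose by 1.41 in all members (0.92 to 1.94) and by 2.26 in the 3-marker members (1.75 to 2.81). In blood endothelium it was at 1.87, 3.31, 2.26 and 11.4 CPM. Gdf15 fell from 1508 CPM in sham to 207 in CLP (-3.24, -3.72 to -2.82, and -2.84, -3.39 to -2.37), while blood endothelium had 34.4 and 50.4 CPM. Fn1, encoding fibronectin, was at 280, 488, 63.4 and 69.3 CPM and fell by 3.72 and 2.89 on the log2 scale. It had UMIs in 18 of 32 3-marker members of sham and 8 of 44 of CLP. Nudt4, an inositol phosphate phosphatase gene, was at 787, 1281, 167 and 151 CPM (-3.11 and -2.92), and Col18a1, a basement membrane collagen, at 206, 132, 23 and 25.2 CPM (-3.10 and -2.37). For Fn1, Nudt4 and Col18a1 both septic libraries lay below control and sham. Blood endothelium had the same direction from sham to CLP, with 109 and 48.8 CPM of Fn1, 257 and 94.6 CPM of Nudt4 and 53.8 and 20.5 CPM of Col18a1. Whether the ratios of the members and of blood endothelium differ was not tested, with 1 library in each group.

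Of the genes for immune cell traffic, Thy1, an adhesion molecule for leukocytes on lymphatic endothelium, was at 375, 256, 92.2 and 6.30 CPM and fell (-1.81, -2.60 to -1.14, and -1.44, -2.34 to -0.69). Il7 was at 166, 94.8, 34.6 and 18.9 CPM and fell (-2.09, -3.73 to -0.91, and -1.36, -3.0 to -0.18). Ackr4 had 104 CPM in all members of sham and no UMI in those of CLP, at least 15.1-fold lower (8.98-fold in the 3-marker members). Few members held it in sham. Among 3-marker members of sham with at least 2000 UMIs, 2 of 13 with a Lyve1 UMI held 25 UMIs of Ackr4. In the 10 without Lyve1, 4 members held 28 UMIs. Ackr2, which scavenges inflammatory chemokines, was at 58.3, 23, 132 and 63.0 CPM and rose (1.70 and 2.47). Csf3, the granulocyte growth factor gene, was at 4.49, 14.4, 167 and 1178 CPM and rose (2.88, 1.63 to 4.71, and 3.43, 2.15 to 5.27), with UMIs in 5 of 44 of the 3-marker members of CLP. Of 26 leukocyte guidance genes 6 rose and 4 fell.

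The glucocorticoid targets Fkbp5 (4.04 and 3.81, with 3 UMIs in the 3-marker members of sham) and Tsc22d3 (2.25 and 3.47) rose, and 5 of 15 genes of their list rose and 1 fell. Lymphatic identity genes leaned down in all members, with 2 of 30 rising and 8 falling (median -0.47), and were even in the 3-marker members, with 4 of 28 rising and 4 falling (median -0.10). Tbx1 shows the difference: its ratio was -1.76 in all members and -0.98 in the 3-marker members. The metalloreductase gene Steap4 had no UMI in the 3-marker members of sham and 167 CPM in CLP, at least 19.4-fold higher. Selp and Csf1, also among the largest rises in all members (4.09 and 3.47), had ratios of 2.96 and 1.45 (-0.38 to 3.49) in the 3-marker members. Of 17 junction genes 0 rose and 0 fell.

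**Figure D5:**
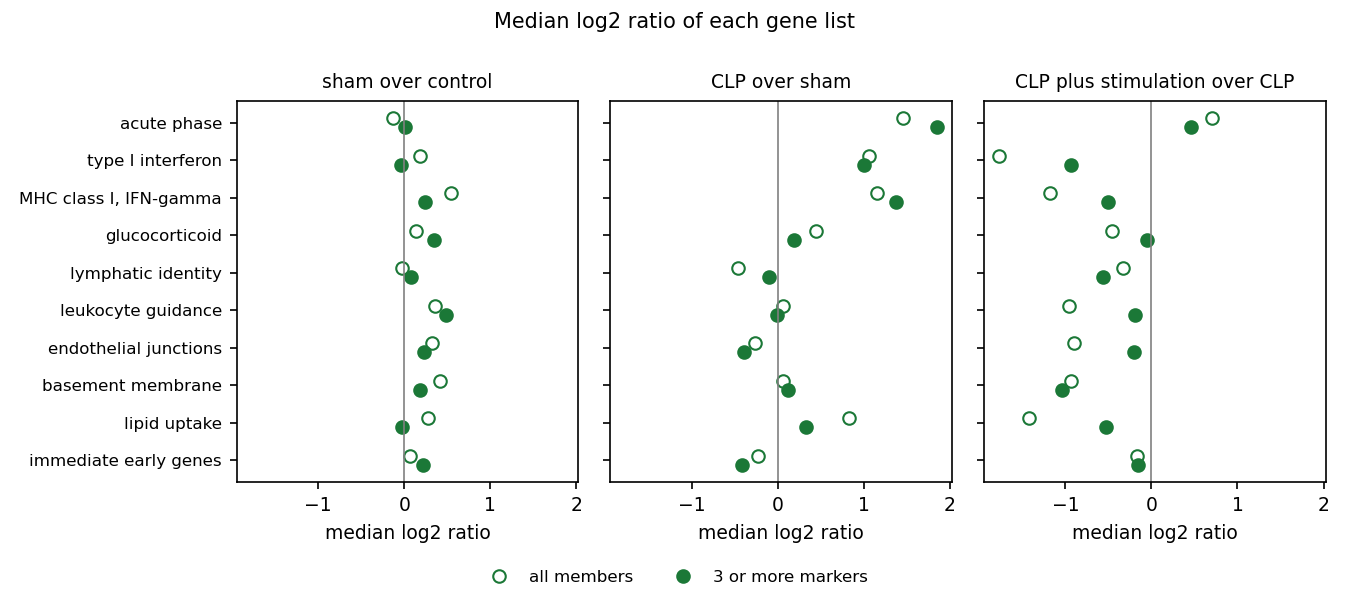
Median log2 ratio of 10 gene lists in the 3 comparisons of libraries, for all members (open points) and for the 3-marker members (filled points), among genes with at least 20 UMIs. The acute phase list stands at 1.45 and 1.84 in CLP over sham, and the type I interferon list at -1.77 and -0.93 in CLP plus stimulation over CLP.

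The library with tragus stimulation held 12 members, 10 of them 3-marker members, and 2 of these with 71066 and 57523 UMIs held 81.0% of the UMIs of the 10. Its values are therefore close to those of 2 cells, and levels with each member weighted equally are added. Lcn2 rose from CLP to CLP plus stimulation (1.85, 1.78 to 1.92, and 1.18, 1.11 to 1.25), and with equal weights it was at 12830 and 17822 CPM, a difference of less than 2-fold. Csf3 rose from 167 to 1178 CPM (3.5, 2.98 to 4.10, and 2.80, 2.25 to 3.44), with UMIs in 5 of 10 of the 3-marker members and an equal-weight level of 1140 CPM against 195 CPM in CLP. Mt1 rose from 1555 to 7809 CPM (2.72 and 2.33, 2.14 to 2.52) and Mt2 from 979 to 3143 CPM (2.24 and 1.68, 1.43 to 1.94). Blood endothelium of the same library also had 10583 CPM of Mt1 and 91.2 CPM of Csf3, against 571 and 1.81 CPM in CLP.

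Genes that had risen in CLP did not all do so again. Lbp (0.99 and 0.26), Lrg1 (0.71 and 0.46) and Sema3a (0.33 and -0.55) were under 2-fold. Of 23 acute phase genes 7 rose and 1 fell. Nts rose in the sums (2.06 and 1.36) but was at 1706 and 1484 CPM with equal weights. Tap2 fell from 190 to 31.5 CPM (-2.20 and -2.48, -4.31 to -1.23) and Thy1 from 92.2 to 6.30 CPM (-2.83 and -3.33, -9.26 to -1.19, with 1 UMI). With equal weights these were at 182 and 16.6 CPM and at 90.1 and 1.41 CPM. Of 26 type I interferon genes 1 rose and 21 fell in all members, and 0 rose and 4 fell of 8 in the 3-marker members. All members differ in make-up between these libraries. Members with 2 markers held 60.2% of the member UMIs in CLP. In CLP plus stimulation 26.3% came from the barcode with granulocyte precursor genes described below. The part of this in the ratios of all members was not tested.

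Of 21 basement membrane genes 0 rose and 10 fell, and of 18 in the 3-marker members 0 rose and 9 fell. Col4a1, a chain of the main basement membrane collagen, was at 420, 440, 795 and 277 CPM and fell (-2.53 and -1.51), whereas with equal weights it was at 626 CPM in CLP and 605 in CLP plus stimulation. The background in all members was 449 genes rising (9.3% of 4827) and 840 falling (17.4%). In the 3-marker members it was 174 rising (6.54% of 2661) and 368 falling (13.8%), with 87 and 209 of these also called in all members. Among the 8 largest falls in all members were those of the fatty acid transporter gene Cd36, the matrix protein gene Sparcl1 and the metalloproteinase inhibitor gene Timp4. In the 3-marker members alone Cd36 was at 444 CPM in CLP and 12.6 CPM with stimulation (log2 -4.83, with 2 UMIs in the latter). Sparcl1 went from 115 CPM to no UMI, at least 6.10-fold lower, and Timp4 from 69.1 CPM to no UMI, at least 3.66-fold lower. The blood endothelial markers summed to 6189 CPM for CLP and 481 CPM with stimulation in all members, and to 1665 and 623 CPM in the 3-marker members, and their part in these falls was not tested.

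Among the 8 largest rises in all members, those of the granulocyte precursor genes Ctsg, Prtn3 and Mpo came from a lone deep barcode with 57006 UMIs. It held 1 UMI each of Prox1 and Lyve1, and 99, 53 and 28 UMIs of these genes. The endothelial genes Cdh5 and Pecam1 had 0 UMIs in it. This barcode held 26.3% of the member UMIs of its library, so it enters every ratio of all members in this comparison. Ctsg, Prtn3 and Mpo had no UMI in the 3-marker members of either library.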

How the data were processed

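Single-cell RNA was measured in 4 libraries of mouse heart, 1 per group. The authors deposited filtered matrices of UMI counts per gene and barcode, which the file headers mark as output of Cell Ranger 5.0.0, on build mm10 per the submitters' processing notes. The deposited counts are whole numbers, differ in total between libraries and were used as raw counts. The members, gene lists and markers were chosen with earlier results of these data known. UMI counts were summed per library and cell set and divided by the total to give CPM. Ratios of libraries used a prior count of 0.5 and exact 95% intervals, which cover counting error only. Cell sets were compared across the 4 libraries with edgeR 4.0.16 (quasi-likelihood test, TMM scaling, library as a block, Benjamini-Hochberg adjustment), which pairs cell sets that come from the same library. Genes used to choose either set were left out, and calls needed an adjusted p under 0.05. Doublets were kept, as the rule has no such step. A repeat left out the highest Scrublet scores (0.8% per 1000 barcodes). The scripts were tested on simulated data.

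Genes named were the 8 highest and 8 lowest ratios per comparison of libraries (at least 20 UMIs and 100 CPM, passing over mitochondrial, ribosomal, haemoglobin, immunoglobulin, sex-linked and unnamed genes, rule genes, markers of other cells and genes with a higher CPM over other barcodes), 10 per direction between cell sets, the 2 highest and lowest of each gene list with members of at least 500 CPM, and all identity and rule genes. The text gives those that bear on the members' biology. Alternatives varied the markers needed, the limits, scaling, weighting, filters, depth, tool and libraries, with DESeq2 1.42.0 among the tools. Equal weights within the 3-marker members, the deepest member left out, and the removal of barcodes positive for Prox1 and Flt4 alone were chosen after seeing the data.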

Additional observations from a re-analysis of the deposited data

How the results depend on the processing

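No paired analysis was possible for the treatments because each is 1 library, while cell sets were paired by library. The precision is limited by the number of members and by a few deep barcodes. Single gene results were counted once per named gene and alternative setting. Of such ratios between libraries 535 stayed within their interval, 133 moved outside it and 4 reversed. A change of the minimum number of UMIs leaves a ratio as it is, so those settings count as unmoved by design. Of fold changes between cell sets 696 kept their call and 51 lost it. The cause was not tested. Slc41a1 in sham over control was 1.74 in all members and 2.13 in the 3-marker members, but -0.10 with equal weights. The type I interferon median in CLP over sham was -0.31 at 1000 UMIs per member. Slpi in CLP plus stimulation over CLP was 7.39 in all members but -1.46 in the 3-marker members. It was -1.58 there with equal weights and -0.78 without the deepest members.

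The share of members with at least 3 markers was 0.513% in control, 0.357% in sham and 0.528% in CLP. With limits of 5 it was 0.577% in control and 0.390% in sham, and at 1000 UMIs it was 0.520%, 0.334%, 0.461% and 0.0696% in the 4 libraries. Without barcodes positive for Prox1 and Flt4 alone it was 0.446% in sham.

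Counts of 2-fold genes are given as higher and lower. Equal weights gave 759 and 684 of 6686 genes in sham over control and 749 and 1024 of 6281 in CLP over sham. They gave 825 and 1509 of 4827 in CLP plus stimulation over CLP. A minimum of 50 UMIs left 3675, 3323 and 2149 genes and gave 102 and 44, 171 and 244, and 149 and 344. No filter left 13961, 13839 and 13081 genes and gave 2316 and 1936, 2252 and 2949, and 2837 and 2834. Thinning to 1000 UMIs left 1191, 799 and 448 genes and gave 60 and 93, 81 and 58, and 50 and 87. Of the genes called in all members at full depth, 7 and 8, 37 and 14, and 10 and 32 were called again after thinning. In the 3-marker members the last comparison gave 174 and 368 of 2661. Equal weights in them gave 559 and 701 of 5480 in sham over control and 564 of 4270 higher in CLP over sham. Without their deepest members 226 of 4949 were higher in sham over control, and 208 and 368 of 3510 were called in CLP over sham. In CLP plus stimulation over CLP it was 142 and 345 of 1917.

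Against blood endothelium, edgeR without the replicate block called 296 higher and 61 lower, no filter 834 higher, and the 3-marker members 932 and 1400. Leaving out a library gave 273 to 877 higher and 169 to 998 lower. Against endocardium, no replicate block gave 71 and 9, DESeq2 125 higher, no filter 462 and 362, and the 3-marker members 397 and 269. Leaving out a library gave 79 to 290 higher and 25 to 192 lower. Without barcodes positive for Prox1 and Flt4 alone 253 were lower. Without the block Sox18, Alpl, Fxyd6 and Slc1a1 lost their calls against blood endothelium, and H19 against endocardium.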

Other observations

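Members with a Lyve1 UMI and members without one differed in genes outside the rule, among 3-marker members with at least 2000 UMIs. Lyve1 is part of the rule, so this is a description. Ccl21a was at 18032 CPM in the 41 members of control with Lyve1 and 2727 CPM in the 17 without it. It was at 5375 and 2927 CPM in sham (13 and 10 members), and at 11705 and 1468 CPM in CLP (24 and 8 members). With each member weighted equally, Ccl21a was at 21856 and 1388 CPM in control, 14876 and 2177 in sham, and 10924 and 2956 in CLP. The median depths of the 2 sets were 6014 and 4185 UMIs in control, 4247 and 10061.5 in sham, and 3825 and 3740 in CLP. Nts had the opposite order in these 3 libraries, with 1892 and 3653 CPM in control, 1710 and 3599 in sham, and 1614 and 2490 in CLP. Gdf15 was at 405 and 816 CPM in control at 718 and 2381 CPM in sham, and at 189 and 236 CPM in CLP.

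The 2 deepest members of sham belonged to the members poor in Ccl21a. They held 117 and 78 UMIs of Prox1, 83 and 65 of Mmrn1, 191 and 222 of Nts and 1057 and 554 of Igfbp5, which encodes a growth factor binding protein, but 1 and 0 UMIs of Lyve1. The 2 deepest 3-marker members of CLP plus stimulation held 576 and 2 UMIs of Ccl21a, 101 and 15 of Lyve1 and 313 and 397 of Nts. Both held Lcn2 (2718 and 1333 UMIs), Csf3 (91 and 52 UMIs) and Mt1 (726 and 313 UMIs). A further member of that library with 4 markers and 9678 UMIs held 9 UMIs of Trbc1, 4 of Trbc2 and 3 of Cd3d, which encode parts of the T cell receptor complex.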
